A study of Rattus norvegicus with 10 samples.

Results

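Lcn2, which encodes the secreted iron-carrier protein lipocalin-2, was examined together with 9 genes of cytokine signalling through gp130 and STAT3 in the neurointermediate lobe of the rat pituitary. The members were Lcn2, Cebpd, Cebpb, Socs3, Stat3, Il6st, Osmr, Lifr, Jak1 and Jak2, and every probe set whose platform annotation gives exactly 1 of these symbols was taken. That gave 17 of the 31042 probe sets that are not array controls, for 9 of the 10 genes and of 14217 genes named in this way in all. No probe set carried Osmr as its only symbol, so its transcript was not analysed here. The genes were selected on the measured change between dehydrated and control arrays, that of Lcn2 above all, so the members' group differences are given as a description and without p-values.

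The arrays compared male Sprague Dawley rats of 10 to 12 weeks that had been dehydrated for 3 days with control rats of the same strain, sex and age, 5 arrays in each group. The RNA on an array was pooled from 5 animals, so differences between single rats are not visible. The series' design text names another tissue, the supraoptic nucleus, and the tissue was taken from the title and the sample labels. The lobe's own genes were bright: Pomc, the melanotroph hormone precursor, had a signal of 491 to 1090 on dehydrated and 639 to 894 on control arrays, and Rax, a pituicyte transcription factor gene, had 262 to 349 and 321 to 365. The hormone genes of the anterior lobe were also bright, and Gh1, the growth hormone gene, had 1231 to 3272 on dehydrated and 746 to 3336 on control arrays.

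Cytokines of the interleukin-6 family signal through receptor pairs that contain gp130, the product of Il6st. The partner chains include the receptors for leukaemia inhibitory factor, encoded by Lifr, and for oncostatin M, encoded by Osmr. The receptor tails hold the kinases JAK1 and JAK2, which phosphorylate STAT3, and STAT3 then enters the nucleus and switches on genes that include Socs3, Cebpb and Cebpd. SOCS3 in turn blocks the receptor complex, and the C/EBP factors are activators of acute-phase genes. In rodents Lcn2 is an acute-phase gene of liver, glia and endothelium and a granule protein gene of neutrophils, and in mouse its induction is known to need NF-kB together with its cofactor encoded by Nfkbiz and to draw on the C/EBP factors.

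The sequence before the Lcn2 start is shown because that gene had by far the widest gap between the groups, and the one before Stat3 because STAT3 is the hub of the pathway. Both are the 250 bases upstream of the RefSeq start on assembly GRCr8, on the minus strand, at chr3:36081781-36082030 for Lcn2 and chr10:86363360-86363609 for Stat3. Capitals mark matches on either strand to the C/EBP motif TTGCNNAA or to the loose NF-kB motif GGGNNNNNCC.
Lcn2: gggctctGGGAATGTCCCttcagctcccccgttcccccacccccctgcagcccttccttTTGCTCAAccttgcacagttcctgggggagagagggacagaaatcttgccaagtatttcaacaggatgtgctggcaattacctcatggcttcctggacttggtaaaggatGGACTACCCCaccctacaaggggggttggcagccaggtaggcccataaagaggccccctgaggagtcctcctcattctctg
Stat3: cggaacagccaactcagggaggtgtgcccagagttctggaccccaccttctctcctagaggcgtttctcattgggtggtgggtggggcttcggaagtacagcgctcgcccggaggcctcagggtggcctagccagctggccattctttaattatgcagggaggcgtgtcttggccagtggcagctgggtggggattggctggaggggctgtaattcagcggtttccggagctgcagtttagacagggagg
The C/EBP match of Lcn2, TTGCTCAA, lay 191 to 184 bases before the start. The motif occurs in 9.22% of 33469 such windows. Its loose NF-kB matches were a pair that overlap, GGGAATGTCC at 243 to 234 and GGAATGTCCC at 242 to 233, and GGACTACCCC at 81 to 72. This loose motif was added after the windows had been read and occurs in 42.3% of them, while the stricter form GGGNNTTTCC, held by 1.3%, was not found before any member. The STAT motif TTCNNNGAA, held by 7.67% of windows, was not found in the 250 bases before any of the 8 members in the table, which leaves out Cebpd and Jak1. Of those 8, Lcn2 alone held the C/EBP motif and 6 held the loose NF-kB motif. Each window rests on the annotated RefSeq start, and sites elsewhere, such as near another start of the gene, were not searched. A missing match therefore does not show that a gene lacks the site.

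Lcn2 had a signal of 602, 671, 812, 1055 and 1009 on the 5 dehydrated arrays, against 226, 177, 207, 254 and 197 on the 5 control arrays. Every dehydrated array lay above every control array, with a wide gap between the groups. The means were 830 ± 200.2 in dehydrated lobes and 212 ± 29.3 in control lobes (SD, n = 5 each). On the log2(signal + 5) scale the change was 1.92 ± 0.14 (SE), a 3.78-fold difference. It lay between 1.82 and 2.02 under all 21 alternative settings run. Here, as for every gene in a mixed tissue, more RNA per cell and more cells of a kind cannot be told apart. Dehydrated arrays 4 and 5 had the highest values and arrays 1 and 2 the lowest, so that the dehydrated pools spread more widely than the control pools in signal units.

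**Figure D1:**
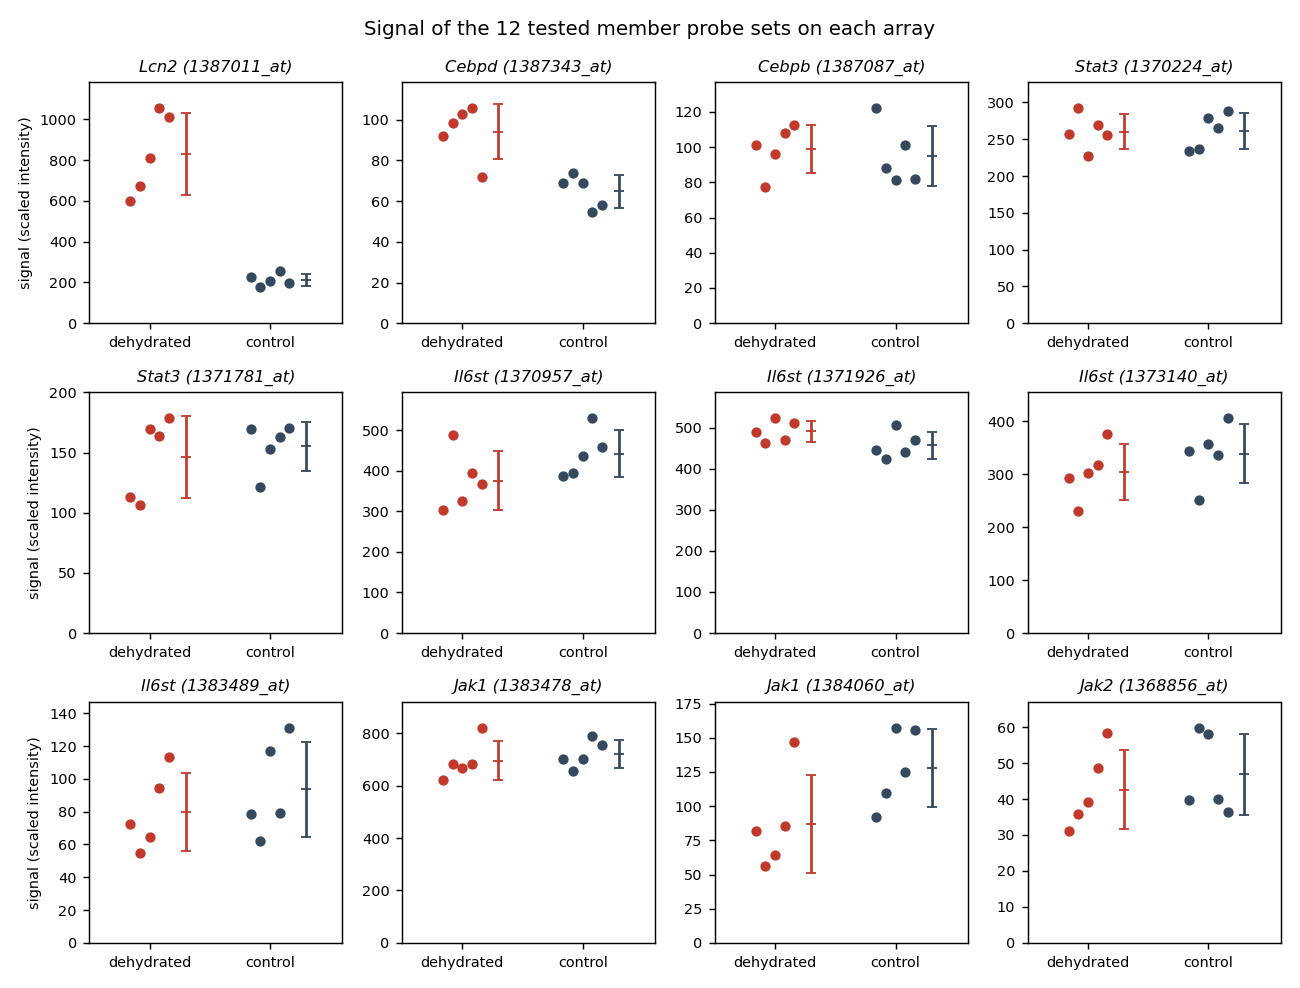
Scaled signal intensity (vertical axis, from 0) of the 12 tested member probe sets on each of the 5 dehydrated (left) and 5 control (right) arrays; points are arrays, bars are mean ± SD. The Lcn2 values of the groups do not overlap (602 to 1055 in dehydrated and 177 to 254 in control lobes), 4 of 5 dehydrated Cebpd values lie above all control values, and the Stat3, Il6st, Jak1, Jak2 and Cebpb values overlap.

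Among the transcription factors of the group, Cebpd, whose product C/EBP-delta is an early activator of acute-phase genes, had the largest increase. Its bright probe set, 1387343_at, had a signal of 92.2, 98.2, 103, 106 and 71.9 in dehydrated lobes, against 68.7, 73.7, 68.7, 54.5 and 58.1 in control lobes. Of the dehydrated arrays, 4 lay above all controls, and array 5 lay inside the control range. The means were 94.2 ± 13.5 and 64.7 ± 8.07 (SD, n = 5 each), and the log2 change was 0.50 ± 0.13 (SE), or 1.42-fold. The other 2 Cebpd probe sets were too dim to be tested, at 0.8 to 23.7 on dehydrated and 0.6 to 20.0 on control arrays, and give no second reading of this change. Cebpb, the gene of the related factor C/EBP-beta, had a signal of 77.6 to 113 (median 101) in dehydrated and 81.3 to 122 (median 88.1) in control lobes. The Cebpb groups overlapped throughout, with a log2 change of 0.06 ± 0.13 (SE).

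Stat3 was measured by 2 probe sets. Probe set 1370224_at had a signal of 257, 292, 227, 270 and 256 in dehydrated lobes, against 234, 237, 279, 265 and 289 in control lobes. The groups covered the same range, and the log2 change was 0.00 ± 0.09 (SE). Probe set 1371781_at had 113, 106, 170, 164 and 179 in dehydrated lobes, against 170, 121, 153, 163 and 170 in control lobes, a log2 change of -0.10 ± 0.14 (SE). Its 2 lowest arrays were dehydrated 1 and 2. These are transcript levels, and phosphorylated STAT3, the active form, was not measured.

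The receptor genes gave no common direction. Il6st, the gene of gp130, was read by 4 probe sets. The brightest, 1371926_at, had a signal of 464 to 524 in dehydrated and 423 to 507 in control lobes, with a log2 change of 0.10 ± 0.07 (SE). The other 3 changed by -0.24 ± 0.12, -0.16 ± 0.13 and -0.21 ± 0.20 (SE), for 1370957_at, 1373140_at and 1383489_at. The groups overlapped on all 4, and the probe sets of this gene differ in the sign of their change. Lifr, whose product pairs with gp130, was dim on both of its probe sets, at 3.2 to 33.8 and 4.9 to 11.5 on dehydrated arrays and at 11.9 to 34.1 and 1.1 to 7.4 on control arrays.

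Of the kinase genes, Jak1 was read by 2 probe sets that did not move alike. The bright one, 1383478_at, had a signal of 621, 681, 667, 684 and 821 in dehydrated lobes, against 702, 655, 701, 789 and 754 in control lobes, a log2 change of -0.05 ± 0.08 (SE). The dimmer one, 1384060_at, had 81.7, 56.4, 64.4, 85.2 and 147 in dehydrated lobes, against 92.3, 110, 157, 125 and 156 in control lobes. Dehydrated arrays 1 to 4 lay below all controls and array 5 lay among them, with a log2 change of -0.58 ± 0.21 (SE). Jak2 had a signal of 31.2 to 58.4 in dehydrated and 36.5 to 59.8 in control lobes, a log2 change of -0.12 ± 0.18 (SE).

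Socs3, the feedback inhibitor that STAT3 switches on, had 1 probe set, and it was too dim to be tested. Its signal was 19.3, 18.5, 10.9, 6.3 and 2.5 in dehydrated lobes, against 1.8, 1.7, 9.9, 1.2 and 3.1 in control lobes. Arrays 1, 2 and 3 of the dehydrated group lay above all controls and arrays 4 and 5 lay among them. These values are below the level of the filter on dim probe sets, a mean of about 22.4 signal units, and detection calls were not used here, so they do not show whether the transcript was present.

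In all, 12 of the 17 member probe sets, for 7 genes, passed the filter on dim probe sets. In a limma fit over all 18625 tested probe sets with Benjamini-Hochberg adjustment, the probe sets of Lcn2 and Cebpd, 2 of the 12, lay past the threshold applied to all probe sets, an adjusted p of 0.05, both higher in dehydrated lobes. The same fit called 2.46% of all tested probe sets, 1.68% as higher and 0.784% as lower, or 312 higher and 146 lower, and with median centring of the arrays 456 higher and 113 lower. Because the members were chosen with this contrast known, this is a description and no test of them, and nothing is read from their count. Groups that did not overlap were found for 1 of the 12, and for 4.59% of all tested probe sets. The median log2 change was -0.08 over the 12 and -0.01 over all tested probe sets, and 8 of the 12 changes were negative. The call of Cebpd ended when any 1 array other than dehydrated 5 was left out, with no filter, with no intensity trend, and with the ratio described below as a covariate. Without dehydrated 5 the Jak1 probe set 1384060_at passed as well, with a log2 change of -0.78.

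**Figure D2:**
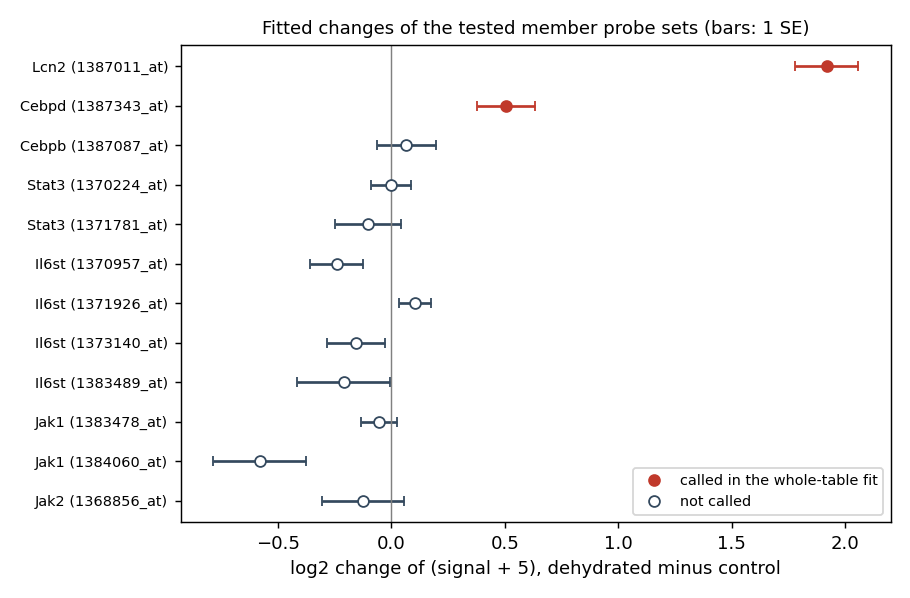
Fitted change on the log2(signal + 5) scale, dehydrated minus control, of the 12 tested member probe sets; points are estimates, bars are 1 SE, and filled points passed the fit over all probe sets. Lcn2 (1.92) and Cebpd (0.50) lie to the right, while the 10 others lie between -0.58 and 0.10.

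Each array also carries control probe sets near both ends of the GAPDH and beta-actin transcripts, and their mean log2 ratio, 3' end over 5' end, increases as RNA is shortened. It was 2.15 ± 0.38 in dehydrated and 1.78 ± 0.48 in control lobes (SD, n = 5 each, exact two-sided permutation p = 0.214). The mean joins 2 transcripts of unlike level, with log2 ratios over the 10 arrays of 0.41 to 1.70 for GAPDH and 2.11 to 3.64 for beta-actin. With each group's mean taken off, the ratio was correlated with the 12 member probe sets over the 10 arrays, with permutation within the groups and adjustment over the 12 relations. The dimmer Jak1 probe set, 1384060_at, followed the ratio downward (Pearson r = -0.85, exact permutation p = 0.00201, adjusted p = 0.0242). Its Spearman rho, from ranks within each group, was -0.85 (exact permutation p = 0.00931, adjusted p = 0.0767), and r was -0.79 without control 5 and dehydrated 2, the arrays farthest from the median ratio. With the ratio as a covariate its change was -0.27 ± 0.14 (SE), in place of -0.58.

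The dimmest tested Il6st probe set, 1383489_at, gave r = -0.73 (exact permutation p = 0.0251, adjusted p = 0.151) and rho = -0.80 (exact permutation p = 0.0192, adjusted p = 0.0767), and its r was -0.52 without those 2 arrays. Its change was 0.05 ± 0.17 (SE) with the ratio as a covariate, in place of -0.21. For Lcn2, r was -0.22 (exact permutation p = 0.556, adjusted p = 0.647) and rho was -0.10 (exact permutation p = 0.842, adjusted p = 0.947), and its change was 1.97 ± 0.15 (SE) with the ratio as a covariate. For Cebpd, r was 0.41 (exact permutation p = 0.247, adjusted p = 0.418) and rho was 0.08 (exact permutation p = 0.868, adjusted p = 0.947), and the covariate gave a change of 0.44 ± 0.13 (SE) that was not called. Of the 12 relations, that of Jak1 1384060_at was the only one to pass adjustment, by r and not by rho.

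**Figure D3:**
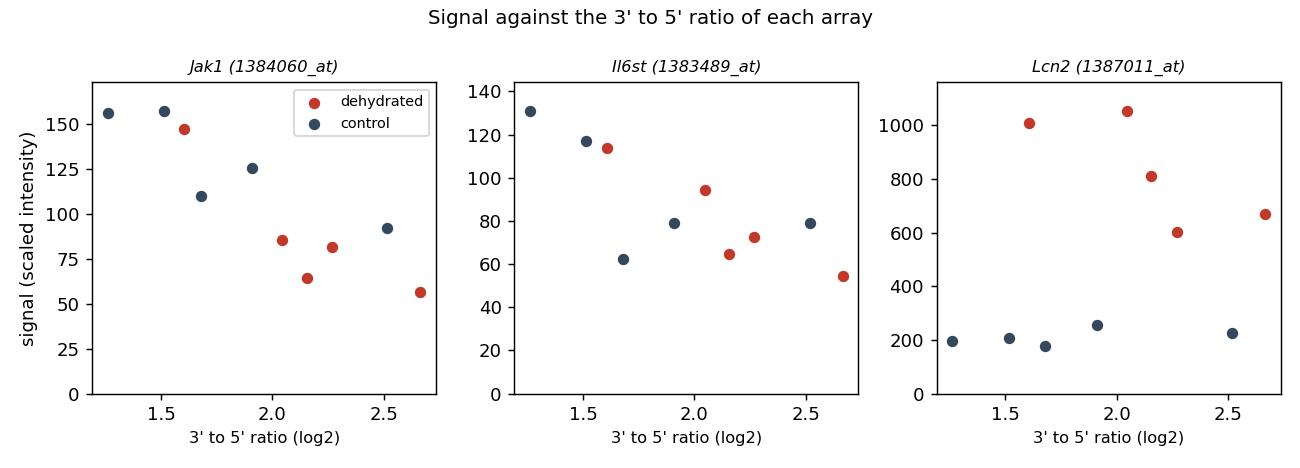
Scaled signal (vertical axes, from 0) against the log2 3' to 5' ratio of the control transcripts on each array, for Jak1 1384060_at, Il6st 1383489_at and Lcn2; each point is 1 of 5 dehydrated or 5 control arrays. The Jak1 signal decreases along the ratio in both groups (r = -0.85 with group means taken off), while the Lcn2 groups stay apart along its whole range.

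The genes around the members were taken from 7 lists of the pathway, 96 genes in all, of which 91 had a probe set with 1 symbol and 64 were tested. In the limma fit 7 of the 64 rose, 2 fell and 55 did not pass, with each gene standing by its brightest tested probe set. That is 14.1% of them, and of all 10593 tested genes 3.19% were called, 2.31% as higher and 0.878% as lower. The median log2 change was -0.02 over the 64 and 0.01 over all tested genes. These lists were drawn up with earlier results of the same arrays known, among them those of Gfap, Fos and Vegfa's receptors, so their counts are no independent evidence.

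Of the cytokines that signal through gp130, none of the 3 tested passed. Transcripts of Il6, Il11, Lif, Osm and Clcf1 were too dim to be tested, at 0.5 to 17.9 on dehydrated and 0.7 to 11.5 on control arrays. Ctf1, the gene of cardiotrophin-1, had the smallest p of the 3, with a signal of 46.1 ± 5.48 in dehydrated and 53.8 ± 2.21 in control lobes (SD, n = 5 each; log2 change -0.21 ± 0.12 SE, limma adjusted p = 0.406). Its groups did not overlap. The median change of the 3 was -0.08.

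None of 9 tested receptor chains, kinases and adaptors passed, with log2 changes from -0.23 to 0.17. Grb2, an adaptor that links receptors to the Ras pathway, had the smallest p (log2 change -0.23 ± 0.08 SE, limma adjusted p = 0.169). Among 11 tested feedback inhibitors none passed, with changes from -0.20 to 0.14, and Socs7, a relative of Socs3, had the smallest p (log2 change -0.14 ± 0.08 SE, limma adjusted p = 0.365). In the C/EBP family none of 4 passed, and Cebpg, a partner of the other factors, changed by -0.10 ± 0.08 (SE, limma adjusted p = 0.549). The medians of these lists were -0.02, -0.05 and -0.04 on the log2 scale.

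Genes known in other tissues as STAT3 targets or acute-phase genes moved in both directions. Of 23 tested, 6 rose, 2 fell and 15 did not pass, and the median log2 change was 0.06. The largest increase was that of Gfap, which encodes a filament protein of astroglia and of pituicytes, with a signal of 395 ± 121 in dehydrated and 71.2 ± 21.3 in control lobes (SD, n = 5 each; log2 change 2.38 ± 0.21 SE, limma adjusted p = 5.3e-06). Cd14, the co-receptor for bacterial lipopolysaccharide and a gene of macrophages, had a signal of 171, 211, 199.7, 160.4 and 167 in dehydrated lobes, against 103, 96.0, 85.9, 95.6 and 76.8 in control lobes. The Cd14 groups did not overlap (log2 change 0.95 ± 0.11 SE, limma adjusted p = 0.000103).

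The 2 that fell were immediate early genes of the AP-1 factor. Fos had a signal of 345 ± 82.6 in dehydrated and 1049 ± 509 in control lobes (SD, n = 5 each; log2 change -1.46 ± 0.28 SE, limma adjusted p = 0.00862), a call that ended with a robust variance model (adjusted p = 0.0731). Only dehydrated 1 and control 3 kept the Fos groups from standing apart. Junb, a partner of Fos, had a signal of 40.5 ± 7.50 in dehydrated and 101 ± 47.8 in control lobes (SD, n = 5 each; log2 change -1.12 ± 0.24 SE, limma adjusted p = 0.0199). The Junb groups overlapped through control 4, and its call ended under 6 of 21 alternatives, with adjusted p up to 0.0704. Among them were the fits that left out dehydrated 1, dehydrated 3 and control 2.

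The other 4 that rose were looked up after their values were seen. A2m, the acute-phase protease inhibitor alpha-2-macroglobulin, had a signal of 581, 623, 759, 850.4 and 1076 in dehydrated lobes, against 481, 422, 548, 434 and 489 in control lobes, and the groups did not overlap (log2 change 0.68 ± 0.13 SE, limma adjusted p = 0.0116, and 0.0582 without an intensity trend). Il1r1, the interleukin-1 receptor gene, rose by 0.55 ± 0.12 (SE, limma adjusted p = 0.0231), and Vegfa, the endothelial growth factor gene, by 0.45 ± 0.10 (SE, limma adjusted p = 0.0196). Ccnd1, the cyclin D1 gene, rose by 0.47 ± 0.10 (SE, limma adjusted p = 0.0204) on the probe set used, while its other 2 tested probe sets each changed by 0.07 (adjusted p = 0.846 and 0.810). The calls of Il1r1, Ccnd1 and Vegfa ended under 6, 5 and 4 of 21 alternatives. Leaving out dehydrated 3 or control 5 ended all 3 of these calls, dehydrated 1 those of Il1r1 and Ccnd1, control 4 those of Ccnd1 and Vegfa, and control 3 that of Il1r1. The adjusted p of these genes then reached at most 0.0849.

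Fgg and Fgb, fibrinogen chains, Lrg1 and Serpina3n were too dim to be tested, as were Pim1, Bcl3 and Myc. Serpina3n, a marker of reactive glia, had 1.2 to 16.3 on dehydrated and 3.6 to 12.6 on control arrays.

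In the list of the NF-kB and interleukin-1 axis none of 9 tested genes passed, and the median log2 change was -0.11. Il1r1, the interleukin-1 receptor gene that rose, is counted above among the STAT3 target and acute-phase genes and not in this list. Il1rap, the accessory chain of the interleukin-1 receptor, had the smallest p, with a signal of 40.4 ± 8.27 in dehydrated and 28.8 ± 5.33 in control lobes (SD, n = 5 each; log2 change 0.43 ± 0.17 SE, limma adjusted p = 0.201). Il1b, Il1a and Tnf, the cytokines of this axis, were too dim to be tested, at 1.3 to 22.7 on dehydrated and 0.9 to 32.7 on control arrays. Nfkbiz, the cofactor known to be needed for Lcn2 in mouse, had 41.6 to 69.9 on dehydrated and 56.6 to 69.4 on control arrays (log2 change -0.21 ± 0.15 SE, limma adjusted p = 0.494).

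Of 5 tested lipocalin-2 partners and other lipocalins, 1 rose and 4 did not pass. Apod, a lipocalin of glia and Schwann cells, had a signal of 1573, 1707, 2003, 1965 and 1700.1 in dehydrated lobes, against 988, 917, 1272, 1121 and 1121 in control lobes, and the groups did not overlap (log2 change 0.72 ± 0.09 SE, limma adjusted p = 0.000296). The gene of the proposed lipocalin-2 receptor, Slc22a17, had 1315 to 2020.3 on dehydrated and 1197 to 1495 on control arrays (log2 change 0.23 ± 0.10 SE, limma adjusted p = 0.264). Mmp9, whose protein binds lipocalin-2, was too dim to be tested.

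**Figure D4:**
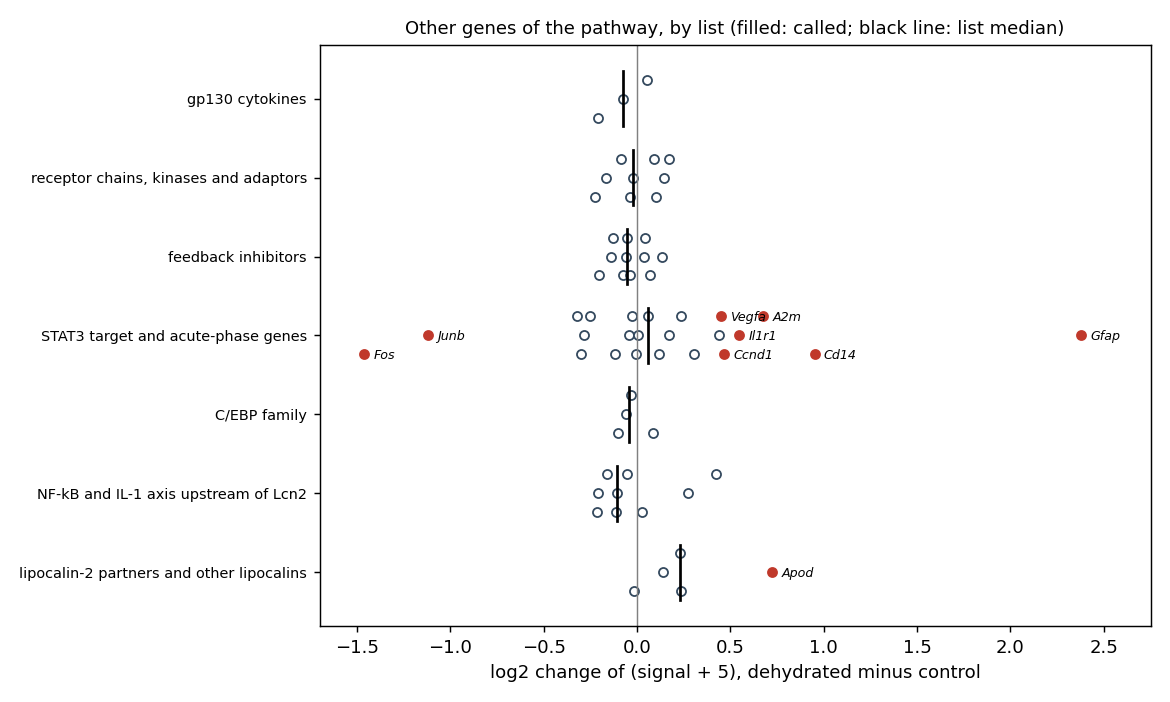
Change on the log2(signal + 5) scale, dehydrated minus control (horizontal axis), of the 64 tested pathway genes other than the members, by list; each point is a gene by its brightest tested probe set, filled points passed the limma fit, and black lines are list medians. Called genes stand in 2 lists, 8 among STAT3 target and acute-phase genes and 1, Apod, among lipocalins.

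Markers of other cell types were read on the same arrays. Neutrophils carry abundant lipocalin-2, and 8 of 12 listed neutrophil markers had a probe set. None of the 8 was bright enough to be tested, and the highest single signal was 29.4. Their summed signal was 45.4 to 85.5 in dehydrated and 54.1 to 72.6 in control lobes. No neutrophil marker was listed at 0, and S100a8 and S100a9, the defining pair, had at most 13.6 on dehydrated and 14.2 on control arrays. The mean log2 level of the 8 differed by -0.04 (exact two-sided permutation p = 0.659).

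All 12 macrophage and microglia markers had a probe set and 10 were tested, of which 2 rose and none fell. These were Cd14, described above, and Aif1 (log2 change 0.42 ± 0.10 SE, limma adjusted p = 0.0375), whose call ended under 9 of 21 alternatives. Its adjusted p was at most 0.114, and the arrays whose absence ended the call were dehydrated 1, 3 and 4 and control 2, 3 and 5. Of the 8 that did not pass, Cd68, a lysosomal protein gene, lay the other way, with a signal of 62.6 ± 24.5 in dehydrated and 105 ± 25.0 in control lobes and 4 of 5 dehydrated arrays below all controls (SD, n = 5 each; log2 change -0.74 ± 0.22 SE, limma adjusted p = 0.081). Mrc1, the mannose receptor gene, changed by -0.32 ± 0.15 (SE, limma adjusted p = 0.294), and the other 6 had positive changes of 0.02 to 0.47. The summed signal of the 12 was 1664 to 2340 in dehydrated and 1449 to 1891 in control lobes, and no marker was at 0. The mean log2 level of the 10 was 7.38 ± 0.14 in dehydrated and 7.20 ± 0.14 in control lobes (SD, n = 5 each, exact two-sided permutation p = 0.0556). Of 12 tested pituicyte and astroglia markers 3 rose, Gfap, Slc1a3 and Lhx2, and of 6 endothelial markers 3 rose, Flt1, Kdr and Emcn, where 3.19% of all tested genes were called. The other 3 endothelial markers did not pass, with changes of 0.26 for Tek, -0.01 for Pecam1 and -0.05 for Cldn5. Other glial markers had negative changes that did not pass, among them Fabp7 (-0.23), Aqp4 (-0.22), S100b (-0.21) and Rax (-0.19), and the list's median was 0.10. Slc1a3 rose on its brightest probe set, while its other 2 tested probe sets changed by 0.15 and -0.39 (limma adjusted p = 0.776 and 0.459). The Flt1 call ended without dehydrated 3 (adjusted p = 0.0589) and that of Slc1a3 without an intensity trend (adjusted p = 0.0509). Of 5 melanotroph markers 1 fell, Pcsk2, and 4 did not pass. Of 6 anterior lobe genes 1 fell, Fshb, while the median of the 6 was 0.29, and Tshb (1.17), Gh1 (0.38), Cga (0.32) and Lhb (0.26) had positive changes that did not pass. The part of these cell types in the Lcn2 difference was not tested.

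The genes whose array-to-array pattern was most like that of Lcn2, once each group's mean was taken off, were Ap3b2 at a likeness of 0.95, Tex264 at 0.94, Sarnp at 0.94, Nop10 at 0.93 and Arhgef3 at 0.93, as Pearson coefficients over the 10 arrays. They are the top of 10592 genes compared, and the values are a description of these arrays. None of the 5 was called between the groups, with log2 changes from -0.18 to 0.06. The members were compared by the brightest tested probe set of each gene. Among them, Jak1 stood at 0.69, Cebpb at 0.58, Jak2 at 0.41, Il6st at 0.11, Stat3 at -0.06 and Cebpd at -0.32. On dehydrated arrays 1 to 4 Cebpd rose in the same order as Lcn2, from 92.2 to 106. On dehydrated array 5, where Lcn2 was also high, Cebpd was lowest in its group, at 71.9. Control array 4 had the highest Lcn2 signal of the controls and the lowest Cebpd signal, 54.5. For Stat3 the most alike were Sphk1 at 0.91, Clip2 at 0.91, Hilpda at 0.91, Cdh22 at 0.90 and Scarf1 at 0.90. None of those 5 was called either.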

How the data were processed

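RNA of the neurointermediate lobe was hybridised to 10 Affymetrix arrays, 5 per group, each from a pool of 5 animals per the labels. The deposited values are 1 linear signal intensity per probe set and array; GCOS 1.2 is named in the submitters' processing notes, and its algorithm and settings are not given in the sources used here. The authors had scaled the deposited intensity values, since the mean after trimming 2% at each end was 100.02 to 100.03 on every array. Changes are therefore relative to the average probe set.

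Values were taken as log2(signal + 5), which understates changes of dim genes. Dim probe sets were dropped by their mean over all 10 arrays, keeping the brightest 60%, 18625 of 31042 (57 array controls left out). These were tested with limma 3.58.1 in R 4.3.3 (lmFit, eBayes with an intensity trend, two-sided, Benjamini-Hochberg, called under 0.05). A gene stood by its brightest tested probe set, and symbols came from the platform annotation, 20826 probe sets having 1 symbol, 436 several and 9780 none. Matching through the gene ID to RefSeq on GRCr8 changed 0 symbols. Single values were compared by exact permutation over the 252 choices of 5 of 10 arrays (smallest p 0.00794), in Python 3.11.15. No neutrophil marker passed the filter, so that level was taken over all measured markers, a choice made after seeing the data, as were the correlations with the 3' to 5' ratio. The fit was tested on simulated data with independent noise for each probe set, so shifts shared by the probe sets of an array were not covered. The number of arrays limits the precision, and p-values measure the spread between these pools only.

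Members and lists were chosen with earlier results of these data known. The text names all members; for each list up to 4 called genes by size or else the gene with the smallest p; and the 5 genes most like Lcn2 and Stat3. Named outside this rule, after their values were seen, were A2m, Il1r1, Ccnd1, Vegfa, Nfkbiz, Slc22a17, the dim genes of the lists and the cell type markers that were not called. Alternatives changed the normalization, pseudocount, filter, variance model, covariate and arrays used. Promoter sequences are from RefSeq, and motifs were searched on both strands of the 250 bases before the start.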

Additional observations from a re-analysis of the deposited data

Results flagged for a closer look

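Grb2 had a signal of 362 on dehydrated array 1, while the other 4 dehydrated arrays lay between 286 and 301. The mean log2 level of the macrophage and microglia markers was 7.14 on dehydrated array 2, against 7.39 to 7.48 on the other dehydrated arrays, and 6.95 on control array 3, against 7.26 to 7.28 on the other control arrays. In each case the gap to the nearest array of the same group was divided by the range of that group, on the log2 scale. The ratios, 0.784, 0.754 and 0.934 in that order, exceeded Dixon's critical value for 5 samples, 0.71. The flagged groups are 3 of 94 groups of arrays checked, and chance alone flags about 5% of such groups.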

How the results depend on the processing

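The log2 change was 1.82 to 2.02 for Lcn2 and 0.44 to 0.62 for Cebpd over 21 alternatives. Cebpd lay past the threshold under 9 of them. Both genes were chosen on this contrast, so this describes the settings and is no evidence of stability. The number of member probe sets called was 1, Lcn2, with no filter, with no intensity trend or with the end ratio of the control transcripts in the model, and 1 to 3 when single arrays were left out. The number of probe sets called in all, 458, was 240 with no intensity trend, 1398 without dehydrated 5 and control 1, and 218 to 1156 with single arrays left out. The directions were 667 higher and 731 lower without dehydrated 5 and control 1, against 312 and 146 with all arrays. Leaving out dehydrated 1 gave 301 calls, dehydrated 3 gave 218 and dehydrated 5 gave 1156, and the absence of control 2, 3, 4 or 5 gave 288 to 304. The 9 called pathway genes were 4 with no intensity trend and 5 to 9 with single arrays left out, 5 without dehydrated 3 and 6 without control 5. The macrophage marker level, 0.18 higher in dehydrated lobes, passed with quantile normalization (0.188), cyclic loess (0.187) and a pseudocount of 16 (0.171, exact permutation p = 0.0397 for each), and lay at 0.112 to 0.235 with single arrays left out, the highest without dehydrated 2 (exact permutation p = 0.00794). The 3' to 5' ratio difference, 0.37, was 0.242 to 0.557 with single arrays left out, the highest without control 1 (exact permutation p = 0.0476). The cause was not tested. The neutrophil marker level did not pass under any of 16 alternatives. With no background values, signal over background is unknown, which limits Socs3, Lifr and the cytokines most. No paired analysis was possible because the labels give no replicate numbers that the groups share.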
